A study of Bos taurus with 2 samples.

Results

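The genes described here are the metalloproteases and serine proteases that act on the extracellular matrix and the epidermis, together with the inhibitor families that hold them in check. Members were taken by name, with no measured value used. A noncontrol probe belonged to the set if its accession matched a bovine RefSeq gene whose symbol starts with MMP, TIMP, ADAM or KLK and a digit, or with ADAMTS, SERPIN or TMPRSS. This gave 130 probes of 57 genes, out of 43639 probes, of which 20587 carried one of 9647 RefSeq symbols. RefSeq lists 132 symbols that fit the rule, and the other 75 were not analysed here. Muzzle RNA of 2 female Hanwoo cattle, a native Korean breed, was hybridised to 1 Agilent 1-colour array per animal. The light-muzzle cow carries the label of yellow nose tissue and the dark-muzzle cow that of black nose tissue. Both were 30 months old and were picked by the study as representative of their muzzle colour. With 1 cow per group there was no replicate check and no test, every difference below is one between 2 animals, and muzzle colour and animal cannot be told apart.

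Matrix metalloproteases (MMP) cut collagens, gelatins and proteoglycans, and the tissue inhibitors of metalloproteases (TIMP) block them. ADAM proteins are membrane-anchored proteases that release the outer parts of other membrane proteins, although some have lost the catalytic site, and the secreted ADAMTS enzymes process procollagens and proteoglycans. Kallikreins (KLK) are secreted serine proteases. Several of them are made in the upper epidermis, where they cut the junctions between corneocytes so that these can be shed, and KLK1 is known from glands. TMPRSS enzymes are serine proteases anchored in the membrane of epithelial cells, and serpins are inhibitors that trap mostly serine proteases, with a few members that inhibit none.

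Levels are given as the log2 of the processed signal (the spot's brightness after background subtraction) minus the 75th percentile of the array, so that 0 is the brightness of a well-expressed probe. Subtracting the light cow's level from the dark cow's gives the log2 ratio, so that a positive ratio is a higher level in the dark muzzle. Each member probe was spotted once. The error that the scanner software gives for its ratio lay between 0.20 and 0.41 on the log2 scale for the 98 member probes well above background on both arrays. Probes spotted 4 times, 36 in number, had a median SD of the ratio of 0.049 between spots, and different probes of 1 accession had one of 0.18. These errors cover the arrays and the probes, not the spread between cows. Probes well above background in only 1 cow (5 in the dark muzzle, 7 in the light muzzle) have a lower bound in place of a ratio, set against the dimmest level still well above background on the other array, and 20 probes were well above background in neither. Because tissue pieces were measured whole, fewer cells of a type and less RNA per cell cannot be told apart.

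Most member probes with a ratio or bound lay within 2-fold between the cows, and those past 2-fold came from every family. Of 110 member probes with a ratio or bound, 13 had a level in the dark muzzle that was higher by 2-fold or more (11.8%, where the share among all probes was 9.76%) and 19 were at least 2-fold lower (17.3%, against 7.17% of all probes). With normexp, a model-based background correction that shrinks ratios of dim probes, 11 were higher (10.1%, against 5.83% of all probes) and 10 lower (9.17%, against 4.28%). Among the probes measured in both cows, 12 of 98 were higher (12.2%, against 8.43%) and 16 were lower (16.3%, against 6.80%). Over these 98 probes the median ratio was -0.10, and that of all probes measured in both cows was 0.0038. Kallikrein probes had the highest family median, 1.32 over 6 probes, followed by the ADAMTS family with 0.61 over 13. The medians of SERPIN (-0.12, 43 probes), MMP (-0.11, 17 probes), ADAM (-0.17, 5 probes) and TIMP (-0.29, 10 probes) were slightly below 0, whereas the 4 TMPRSS probes had a median of -1.15. Counted by gene, 48 of the 57 had a value. In 4 of them every value was at least 2-fold higher (8.33%, against 7.99% of all genes with a value), and in 5 every value was at least 2-fold lower (10.4%, against 4.94%). At least 1 probe was 2-fold higher in 7 genes (14.6%, against 13.8%) and 2-fold lower in 12 (25%, against 9.39%), and MMP9 was in both counts.

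**Figure D1:**
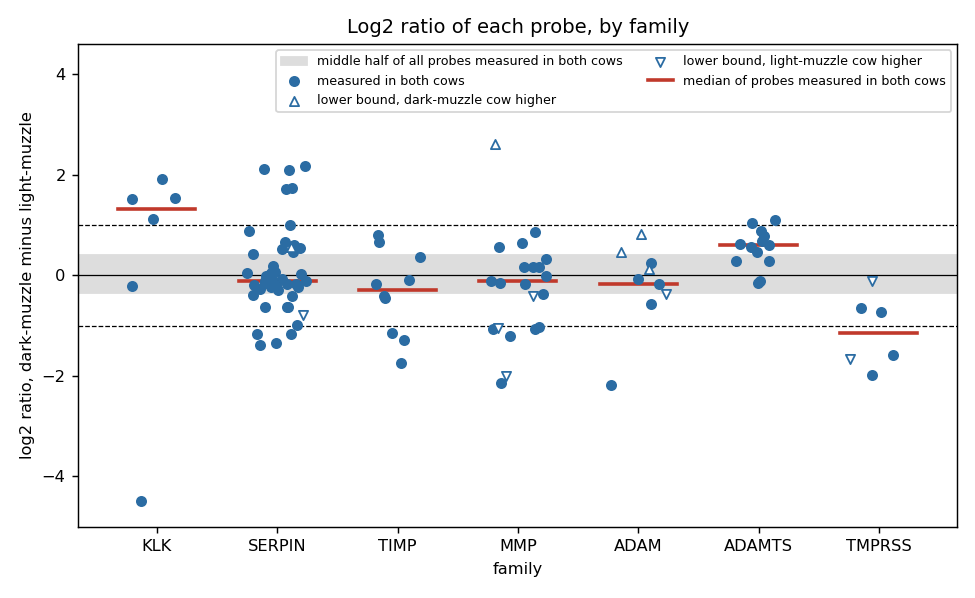
Log2 ratio (dark-muzzle minus light-muzzle, vertical axis) of each member probe, by family (horizontal axis). Filled points were measured in both cows, triangles are lower bounds, red lines are medians of the filled points, the grey band runs from the lower to the upper quartile of all probes measured in both cows and the dashed lines mark 2-fold. The KLK median lies at 1.32 and the TMPRSS median at -1.15, and the lowest point is a KLK1 probe at -4.48.

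The kallikreins moved furthest apart within a family. KLK6, KLK7 and KLK10 were higher in the dark muzzle, by 2.19-fold to 3.76-fold, while a probe of KLK1 was 22.4-fold lower there. KLK7, the enzyme that cuts corneodesmosin in the stratum corneum, went up on its single probe from a level of 3.36 (light muzzle) to 4.48 (dark muzzle), a ratio of 1.13 or 2.19-fold. Under quantile normalization this ratio was 0.94, short of 2-fold. KLK10, also made in stratified epithelium, rose from 2.95 to 4.48 on its single probe, a ratio of 1.53. For KLK6, another kallikrein of the epidermis, the probe pair gave ratios of 1.91 (from -0.96 to 0.95) and 1.52 (from -3.80 to -2.28). All 4 probes of these genes were thus higher in the dark muzzle, and under the other ways of processing their ratios stayed between 0.94 and 1.94.

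KLK1, the tissue kallikrein that releases kinins and is secreted by glands, was represented by a pair of probes that differed widely in ratio. One dropped from 0.017 on the log2 level scale (light muzzle) to -4.47 (dark muzzle), which as processed signal is a fall from 1157 to 51.5. The other stood at -0.12 in the light muzzle and at -0.34 in the dark muzzle, a ratio of -0.22 that is about as large as its own error of 0.20. The ratio of the first probe, -4.48, was the lowest of all members measured in both cows, and it was -3.33 with normexp background correction. KLK5, KLK8 and KLK14, which act in the same layer of the epidermis as KLK7, were not analysed here.

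**Figure D2:**
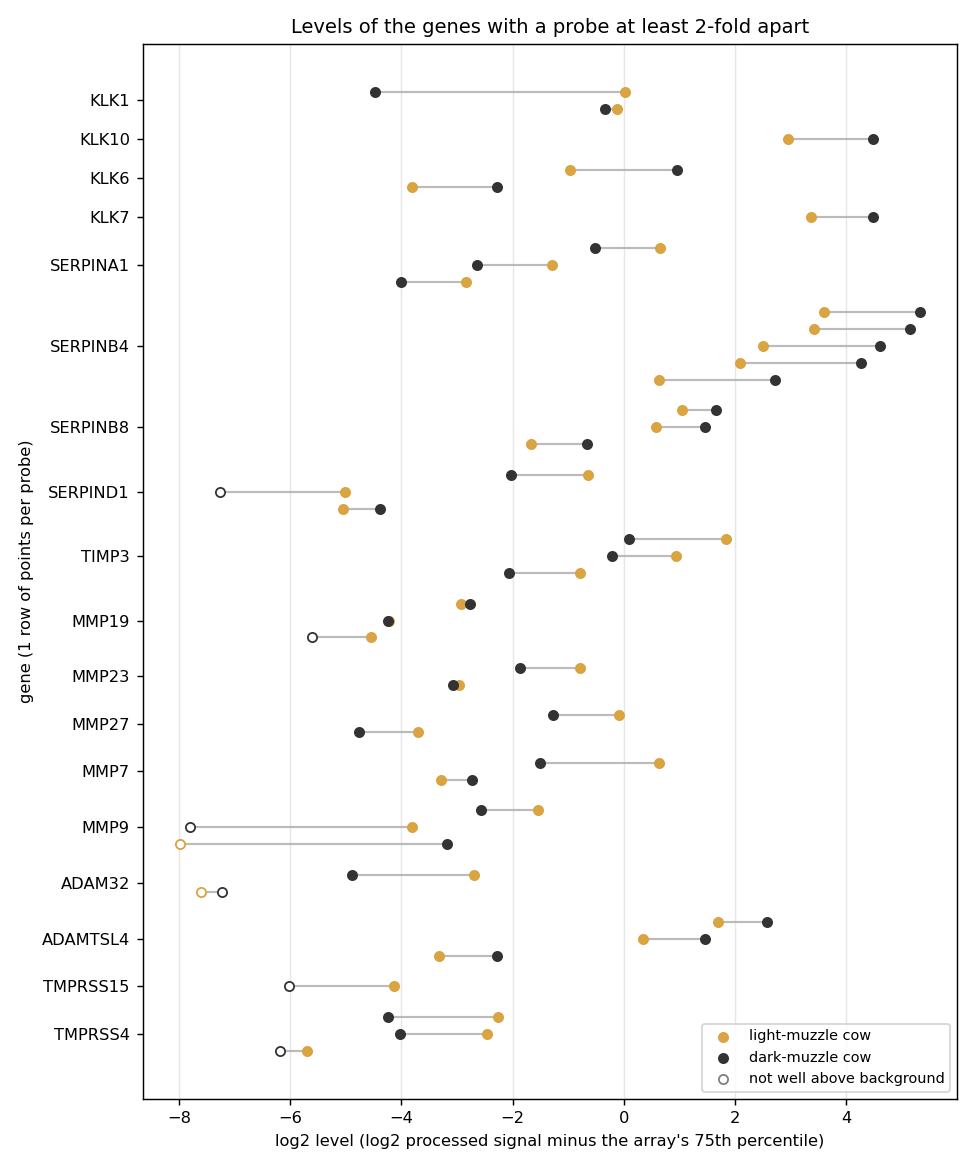
Log2 level (horizontal axis) of every probe of the 18 genes with at least 1 probe 2-fold apart, in the light muzzle (ochre) and the dark muzzle (black), with 1 row of points per probe and open points where the probe was not well above background. The 5 probes of SERPINB4 and the 3 of TIMP3 each point one way, whereas the probes of MMP7, MMP9 and SERPIND1 point both ways and those of KLK1 differ widely in size.

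Of the clade B serpins, which mostly stay inside the cell and are common in stratified epithelium, SERPINB4 differed most. SERPINB4 belongs to the squamous cell carcinoma antigens, inhibitors made by the upper layers of squamous epithelium. Its 5 probes stood at log2 levels of 0.63, 2.09, 2.50, 3.41 and 3.61 in the light muzzle and, in the same order, at 2.71, 4.26, 4.61, 5.15 and 5.33 in the dark muzzle. All of them were higher in the dark muzzle, by 3.31-fold to 4.49-fold, with a mean log2 ratio of 1.96 ± 0.22 (SD between the 5 probes, which come from the same 2 arrays). These 5 probes were 5 of the 13 member probes at least 2-fold higher, and 8 were left without them. The share of 11.8% higher among member probes, beside 9.76% of all probes, thus includes 5 probes of 1 gene. Without them the share of the remaining member probes was below that of all probes. Whether they also bind close relatives of SERPINB4 was not tested.

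SERPINB8, an inhibitor of furin, had ratios of 0.61, 0.87 and 1.0 on its 3 probes, so that only 1 of them reached 2-fold, and that one fell just short of it under quantile normalization (0.998), under the 50th percentile shift (0.98), with no shift (0.99) and under normexp (0.89). SERPINB10 had a ratio of 0.53, from a level of 1.09 in the light muzzle to 1.61 in the dark muzzle. The 6 probes of SERPINB6, a widely expressed inhibitor, lay between -0.12 and 0.056. A pair of them gave levels within 0.05 of each other on both arrays, as did the pair of SERPINF1 probes, and may not be separate measurements. SERPINB5, known as maspin and made by basal keratinocytes and gland epithelium, gave 0.046 on its first probe and -0.64 on its second. SERPINB9, an inhibitor of granzyme B, had a ratio of -0.16 on the single probe well above background, close to the detection limit with levels of -5.08 and -5.24. Over the 18 clade B probes measured in both cows, 6 were at least 2-fold higher, 0 were at least 2-fold lower and the median was 0.29. Among all probes measured in both cows 8.43% were higher and 6.80% lower, and 5 of the 6 higher probes were those of SERPINB4. SERPINB2 and SERPINB7 were not analysed here.

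Among the serpins of the other clades, the probes past 2-fold were those of SERPINA1 and 1 probe of SERPIND1, all lower in the dark muzzle. SERPINA1, alpha-1-antitrypsin, the main inhibitor of neutrophil elastase, was lower in the dark muzzle on all of its 3 probes. Their levels were 0.66, -1.29 and -2.84 in the light muzzle and -0.52, -2.64 and -4.01 in the dark muzzle, which gave ratios of -1.17, -1.35 and -1.16 and a mean of -1.23 ± 0.11 (SD between probes). The dimmest of these probes had a ratio of -0.65 under normexp. SERPINA12, or vaspin, which is known to inhibit KLK7, stood at 3.40 in the light muzzle and at 3.44 in the dark muzzle. Its ratio of 0.041 lay within its error of 0.20. SERPINA10 (-0.20) and the 2 measured probes of SERPINA3-7, an antichymotrypsin-like gene (-0.30 and -0.11), differed little. SERPINA3-3, SERPINA3-8, SERPINA7, SERPINA11 and SERPINA14 were well above background in neither cow. Bovine genes of the SERPINA3 group are close copies of one another, so their probes may share signal.

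SERPIND1, heparin cofactor II, an inhibitor of thrombin, had a probe at -1.39 (from -0.64 in the light muzzle to -2.03 in the dark muzzle). Another was at 0.66 (from -5.05 to -4.39), close to the detection limit, and at 0.27 under normexp. The remaining SERPIND1 probe was well above background only in the light muzzle and stood at least 1.73-fold lower in the dark cow. Antithrombin (SERPINC1) had ratios of -0.39 and -0.17. SERPINE2, protease nexin 1, was the member just outside the 2-fold line on the lower side, with a ratio of -0.98 from a level of -0.54 to one of -1.52. SERPINF1, the pigment epithelium-derived factor, which inhibits no protease, had a ratio of -0.64, and SERPINF2, the inhibitor of plasmin, one of -0.17. The 4 probes of SERPING1, the C1 inhibitor of complement, lay above 0, between 0.18 and 0.54. SERPINH1, a chaperone of collagen with no known inhibitory role, had 3 probes between -0.23 and -0.20. SERPINE3 and SERPINI2 were well above background in neither cow.

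Among the inhibitors of metalloproteases, TIMP3 was lower in the dark muzzle and the other members were within 2-fold. TIMP3 binds to the matrix and also inhibits several ADAM and ADAMTS enzymes. Its 3 probes had levels of 1.83, 0.95 and -0.78 in the light muzzle and of 0.090, -0.21 and -2.07 in the dark muzzle. The ratios were -1.74, -1.15 and -1.29, with a mean of -1.40 ± 0.31 (SD between probes), or 2.63-fold lower, and they stayed at or below -1.11 under every other way of processing that was tried. TIMP1 had ratios of -0.16 and -0.10. TIMP2, which takes part in the activation of MMP2 by MMP14, had ratios of -0.46 and -0.42 on a pair of probes and of 0.37 on the third. TIMP4 was the only TIMP gene with every probe above 0, at 0.66 and 0.79.

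The measured ratios of the collagenases, the gelatinase MMP2 and the membrane enzyme MMP14 were under 2-fold, and the MMP probes past 2-fold were lower in the dark muzzle apart from 1 probe of MMP9. MMP2, gelatinase A, had 4 probes at -0.18, 0.16, 0.32 and 0.87, of which the highest was also the dimmest in the light muzzle, and was 0.40 under normexp. MMP14, which cuts collagen at the cell surface, had a ratio of -0.16, and one of 0.0048 under normexp. MMP1, interstitial collagenase, had ratios of 0.17 and 0.64, and the remaining probe was well above background only in the light muzzle, with a bound of -0.41 that does not limit how far it fell. MMP13, collagenase 3, was near the detection limit, with a ratio of -0.36 on 1 probe and no ratio for its other probes. MMP3 was not analysed here.

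MMP7, known as matrilysin and made by gland epithelium, fell on 1 probe from a level of 0.63 in the light muzzle to -1.51 in the dark muzzle, a ratio of -2.14 or 4.41-fold lower. Its other probe rose from -3.29 to -2.73, a ratio of 0.56. MMP27 was lower on both of its probes, from -0.079 to -1.28 and from -3.70 to -4.75, with ratios of -1.20 and -1.06, of which the second was -0.39 under normexp. MMP23 was lower by 2.10-fold on the first probe and had a ratio of -0.11 on the second. MMP19 had ratios of 0.17 and -0.0075 on the probes measured in both cows, and a bound of -1.05 on the third, which was well above background only in the light muzzle.

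The 3 probes of MMP9, gelatinase B, which is stored in neutrophils and made by keratinocytes at wound edges, did not give 1 direction. The probe measured in both cows fell from -1.54 to -2.56, a ratio of -1.02. Another stood at -3.81 in the light muzzle, was not well above background in the dark muzzle, and was at least 3.99-fold lower there. The third had a level of -3.17 in the dark cow, at least 6.08-fold higher than in the light cow, where it was not well above background. Under normexp these values were -0.75, -0.61 and 1.35. No direction is therefore given for MMP9.

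The ADAMTS enzymes lay mostly above 0 without reaching 2-fold. ADAMTS1, which cuts aggrecan and versican, had ratios of 0.57, 0.61 and 0.78 on its 3 probes. ADAMTS5, another enzyme that cuts aggrecan, had ratios of 0.28 and 0.46, and ADAMTS4 had ratios of 0.69, 0.63 and -0.15 on the probes measured in both cows. ADAMTS2, which removes the N-terminal propeptide of collagen I, gave -0.11 and 0.29. Over these 4 genes the median was 0.52 and 0 of 10 probes were 2-fold apart. ADAMTSL4, which resembles them but has no protease domain and binds fibrillin microfibrils, rose from 1.69 to 2.58, from 0.34 to 1.45 and from -3.32 to -2.28. These are ratios of 0.88, 1.11 and 1.04, with a mean of 1.01 ± 0.11 (SD between probes), and so its probes straddled the 2-fold line. The dimmest of them had a ratio of 0.72 under normexp.

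Of the ADAM genes, ADAM10, a widely expressed protease that releases Notch and growth factors from the membrane, had ratios of -0.17 and -0.075, both within their errors. ADAM23, which lacks a working catalytic site, had ratios of 0.25 and -0.57 and bounds of 0.47 and 0.82 on its dim probes. ADAM32, a gene known mainly from the testis, fell from -2.70 to -4.88 on 1 probe, a ratio of -2.18, which was -1.19 under normexp, while its other probe was well above background in neither cow. ADAM2 and ADAM3A, also known from sperm, were each well above background in only 1 cow, with bounds of -0.36 and 0.12, and ADAM12 in neither. ADAM17 was not analysed here.

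The 4 TMPRSS probes measured in both cows were lower in the dark muzzle. The other 2 were well above background only in the light muzzle, so their bounds could only be negative. TMPRSS4, an epithelial protease, fell from -2.27 to -4.24 on 1 probe and from -2.45 to -4.03 on another, ratios of -1.98 and -1.58. The remaining probe was well above background only in the light muzzle, with a bound of -0.12. TMPRSS2 had ratios of -0.73 and -0.66, short of 2-fold. TMPRSS15, enteropeptidase, which is known from the duodenum, stood at -4.14 in the light muzzle and stood at least 3.18-fold lower in the dark cow, where it was not well above background. These probes are dim, and under normexp no TMPRSS probe reached 2-fold, with values of -0.93 and -0.95 for TMPRSS4 and of -0.56 for TMPRSS15. TMPRSS11D and TMPRSS13 were not analysed here.

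Set apart by family name, the protease families had 5 of 52 probes at least 2-fold higher (9.62%) and 12 lower (23.1%), and the inhibitor families, without SERPINH1, had 6 of 52 higher (11.5%) and 7 lower (13.5%). These groups keep members without the activity of their family, among them ADAM23 and SERPINF1. Among all probes the shares were 9.76% higher and 7.17% lower, so that the share of higher protease probes was at the level of all probes. Of the higher inhibitor probes, 5 were those of SERPINB4 and 1 was of SERPINB8. The lower inhibitor probes were 3 of TIMP3, 3 of SERPINA1 and 1 of SERPIND1. Of the 12 lower protease probes, 3 were bounds. The lower probes of MMP9, MMP19, MMP23, TMPRSS4 and TMPRSS15 and 1 of MMP27 fell short of 2-fold under normexp. The median ratio of the probes measured in both cows was -0.041 for the proteases (42 probes) and -0.11 for the inhibitors (50 probes).

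A list of 30 further proteases and inhibitors outside these families was examined beside them, of which 25 had a probe and 21 were measured in both cows. In this list 6 of 49 probes with a ratio were at least 2-fold higher and 14 were at least 2-fold lower, where the shares among all probes were 9.76% and 7.17%, and the median over genes was -0.31. The higher probes belonged to 3 genes of the epidermis. SPINK5, whose product LEKTI inhibits KLK5 and KLK7, was higher on all of its 4 probes, from levels between 1.85 and 4.15 in the light muzzle to levels between 3.96 and 5.64 in the dark muzzle, with ratios from 1.49 to 2.10. The cysteine protease inhibitors CSTA and CST6 had ratios of 1.66 and 1.43 on 1 probe each.

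The lower genes of that list included DPP4 and WFDC2, with the lowest ratios, and several epithelial serine proteases and inhibitors. PRSS8, or prostasin, fell from 3.09 to 1.02 on the first probe and from -2.66 to -5.01 on the second, ratios of -2.07 and -2.35, of which the second was -1.22 under normexp. SPINT2 and SPINT1, inhibitors of matriptase, had mean ratios of -1.51 and -1.33 (the SPINT1 probes were at -0.96 and -1.01 under normexp), and matriptase itself (ST14) had one of -0.83 over 3 probes between -1.22 and -0.31. WFDC2, a protein with a protease inhibitor fold that glands secrete, fell from 3.06 to -0.55, a ratio of -3.61. DPP4, a membrane peptidase, was lower on all of its 3 probes, with ratios of -4.59 and -3.22 and a bound of -5.07, which under normexp were -3.34, -2.40 and -3.01. FAP, a peptidase of fibroblasts, had ratios of -1.0 and -1.08, which were -0.93 and -0.97 under normexp, and A2M, a general protease trap, reached 2-fold on 2 of 5 probes. Cathepsins B, D, K, S and Z lay between -0.63 and -0.12 on average, and the plasminogen activators PLAT and PLAU were at 0.29 and -0.069.

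**Figure D3:**
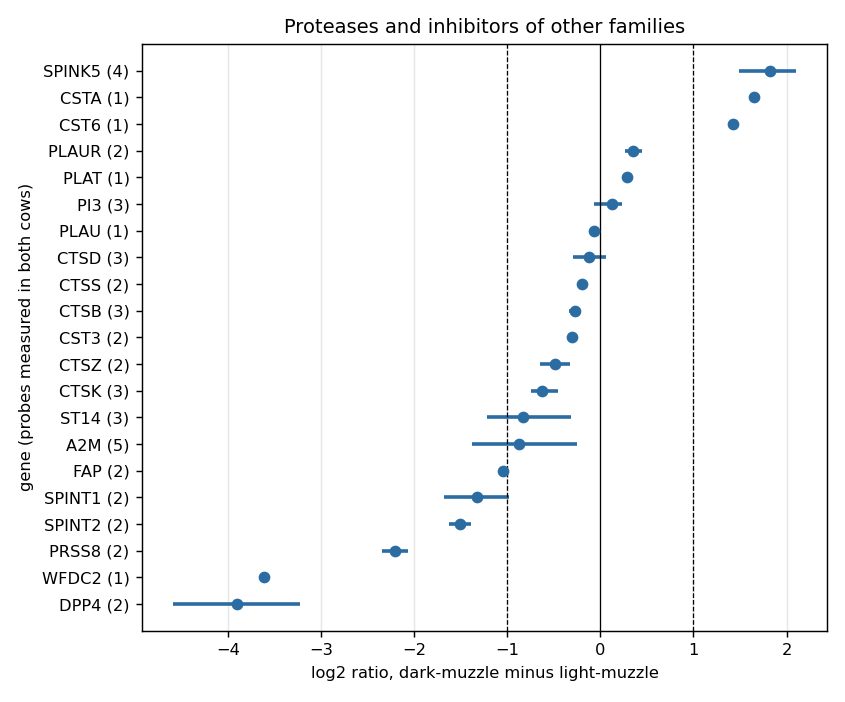
Mean log2 ratio (dark-muzzle minus light-muzzle, horizontal axis) of the 21 listed proteases and inhibitors of other families measured in both cows, with the number of probes in brackets. Bars run from the lowest to the highest probe and dashed lines mark 2-fold, and SPINK5, CSTA and CST6 lie above 1.4 whereas WFDC2 and DPP4 lie below -3.6.

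Markers of several cell types moved on the same arrays. For serous gland, 8 of 10 listed genes had a probe, 5 were at least 2-fold lower and 1 (BPIFA1) stood at least 2-fold higher in the dark cow. LPO (0.57) and LYZ (0.40) were above 0 but within 2-fold. The median over 7 measured genes was -2.50, and the summed processed signal of the list was 444730 in the light muzzle and 43412 in the dark muzzle, where STATH was not well above background. Of the members known from gland epithelium, KLK1 and MMP7 each had 1 probe past 2-fold lower, while their other probes had ratios of -0.22 and 0.56. SERPINB5, also made there, had ratios of 0.046 and -0.64, short of 2-fold. For keratinocytes, 6 of 10 genes had a probe and the median was 0.30. Of these, KRT10 (1.57) and IVL (1.26), made in the upper layers, were past 2-fold, whereas DSG1 (0.25), SFN (0.35) and the basal keratins KRT5 (-0.52) and KRT14 (-0.41) were not. The summed signal of that list was 1150880 in the light muzzle and 1425350 in the dark muzzle.

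All 12 skeletal muscle genes with a probe had higher levels in the dark muzzle, with a median of 3.16 and a summed signal that went from 760278 to 4464830. The medians were -0.42 for fibroblasts (7 genes), 0.90 for endothelium (5 genes), -0.24 for macrophages (6 genes), 0.47 for neutrophils (3 genes), -0.072 for mast cells (3 genes) and 1.34 for melanocytes (3 genes), and in the light cow MPO of the neutrophil list and TYRP1 of the melanocyte list were not well above background. Genes within several of these short lists differed in direction. Of the fibroblast genes 2 were above 0 and 5 below, and of the macrophage genes 1 was above 0 and 5 below. Among melanocyte genes TYR (1.34) and PMEL (1.70) were above 0 and DCT (-0.52) below. Among mast cell genes TPSB2 (1.16) was above 0, and KIT (-0.072) and HDC (-0.48) were below. The part of the listed cell types in the ratios of the proteases and inhibitors was not tested.

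**Figure D4:**
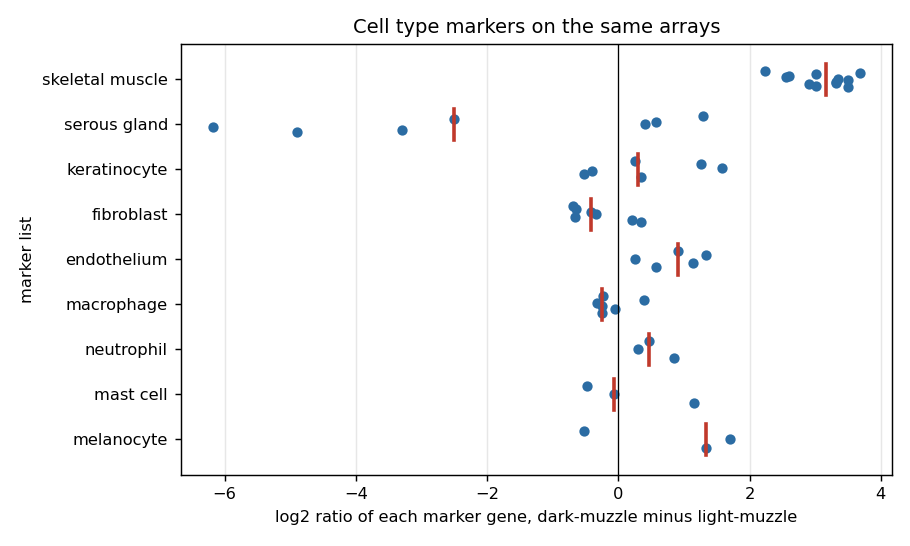
Log2 ratio (dark-muzzle minus light-muzzle, horizontal axis) of each cell type marker measured in both cows, by list (vertical axis), with the median of each list as a red line. The medians run from -2.50 for serous gland to 3.16 for skeletal muscle.

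Probes of the same member differed by more than the spot error in several genes. Of the 33 members with at least 2 probes measured in both cows, 4 had probes that lay 2-fold or more apart in ratio (12.1%). Among all 7661 accessions with at least 2 such probes the share was 10.4%. The 4 genes were KLK1 (-4.48 and -0.22), MMP7 (-2.14 and 0.56), SERPIND1 (-1.39 and 0.66) and MMP2 (-0.18 to 0.87). In contrast, the median distance between the lowest and the highest probe of a member was 0.36, and that over all 7661 accessions was 0.30. In 10 of the 33 genes the measured probes fell on both sides of 0, and the matching share over all accessions was not computed.

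Some members lie side by side in the genome. In the order of the RefSeq table, KLK1 opens a run of 12 kallikrein genes that also holds KLK6, KLK7 and KLK10, so that the gene with the lowest probe ratio and the 3 with ratios above 1 sit in 1 cluster. The serpin A genes form another run of 12, 8 of them with a probe, in which SERPINA1 had a mean ratio of -1.23 and SERPINA12 one of 0.041. ADAMTS5 and ADAMTS1 are neighbours with mean ratios of 0.37 and 0.65. MMP27 and MMP7 lie in 1 run with means of -1.13 and -0.79, the latter from opposed probes at -2.14 and 0.56. Other runs hold MMP13 (-0.36) and MMP1 (0.41), SERPINF2 (-0.17) and SERPINF1 (-0.64), and SERPINB6 (-0.041) and SERPINB9 (-0.16). ADAM32 (-2.18) shares a run with ADAM2 and ADAM3A, which have bounds of -0.36 and 0.12. These are descriptions of single genes on 2 arrays.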

How the data were processed

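Muzzle RNA of 1 light-muzzle and 1 dark-muzzle cow was compared, with groups taken from the labels. Each array was read by the authors with Feature Extraction 10.7.3.1, whose spot table was deposited. The deposited processed signal is the spot intensity left once background and spatial trend were subtracted. A second file from the authors holds log2 values, normalized in GeneSpring, and these follow the log2 processed signal minus the array's 75th percentile. It served as an alternative.

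Levels were computed the same way here. Of 43803 noncontrol spots per array, 34519 (light-muzzle) and 35855 (dark-muzzle) were well above background, none was saturated, and the 13 with an outlier mark on each array were left out. Spots of a probe were averaged, and each probe was kept. The 75th percentile was an intensity of 1144 and 1137. A probe well above background in 1 cow was bounded by the higher of the other array's lowest such level (-5.78 light-muzzle, -5.81 dark-muzzle) and its own level there. Accessions were named through the RefSeq table of the current bovine assembly, which is not the build of the array design, so no coordinate is given. The number of arrays limits the precision, and no test was made.

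Named were members with a probe at least 2-fold apart, skin proteases and inhibitors from a list (23 of 32 with a probe), members with opposed probes, and those next to the threshold; the others are given where their family is described, apart from a member that is counted but not reported singly here. Members and lists were chosen with earlier results of these data known. Alternatives were quantile and loess (span 0.3) normalization, a 50th percentile shift, no shift, normexp (offset 50, on median spot and background signals), no filter on dim probes, only probes measured in both cows, outlier spots kept, the deposited log2 table, thresholds of 1.5-fold and 3-fold, and genes in place of probes. Leaving out SERPINB4 was added after seeing the data. Tools were limma 3.58.1 in R 4.3.3, and Python 3.11.15 with numpy 2.4.6 and pandas 2.3.3. The counting was tested on simulated data.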

Additional observations from a re-analysis of the deposited data

How the results depend on the processing

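The direction of every member probe at least 2-fold apart held under the 9 alternatives of normalization, background and filter that were run on it, and 20 of the 32 stayed past 2-fold wherever they had a value. Of the other 12, 11 fell short under normexp and 2 under quantile normalization. The sign of a bound is set by the cow in which the probe was well above background, so it could not reverse where the filter was kept. Near 0, MMP14 and the second MMP23 probe changed sign under normexp. Member probes at least 2-fold lower numbered 19 as reported and 10 under normexp (beside 11 higher), where 4.28% of all probes were lower. At 1.5-fold 26 were higher and 26 lower (19.7% and 15.1% of all probes), and at 3-fold 7 and 7 (4.42% and 3.19% of all probes). Counted as genes by the mean of their measured probes, or by a bound where none was measured, 5 were higher and 8 lower. The matching share over all genes was not computed. The lower ones include MMP9, for which no direction is given, and KLK1, whose probes differed widely. Without SERPINB4, 8 probes were higher, a share of the remaining member probes below that of all probes. With it there were 13 (11.8% of member probes, against 9.76% of all probes). The median over member probes stayed within the spread between probes (0.18) under all alternatives run. Probes near the detection limit, among them those of TMPRSS4, TMPRSS15, MMP9 and MMP13, are the least certain. No paired analysis was possible because each group holds 1 array.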
